A study of Arabidopsis thaliana with 29 samples.

Results

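Regions where a peak of H3K27me3 was lost, kept or gained in plants with a mutated *LHP1* gene were collected from the deposited peak lists of 2 *LHP1* mutant lines, *tfl2-2* and *lhp1-6*, and of wild-type Col-0. Peaks of the first Col-0 library that overlapped a peak of the second Col-0 library by at least 1 bp formed a base of 2863 reproducible Col-0 peaks, 56.6% of the 5055 peaks in the first list. A reproducible peak counted as lost when neither line had a peak over it (56 peaks), as kept when both lines had one (2590 peaks), and otherwise as present in 1 line (87 in *tfl2-2* only, 130 in *lhp1-6* only). A new peak was a *tfl2-2* peak that overlapped a *lhp1-6* peak and no peak of either Col-0 list, and 901 of the 7034 *tfl2-2* peaks met this rule. Together these are 3764 regions, against 49103 peaks in all 10 lists of the series.

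The series profiled H3K27me3 by ChIP-seq, in which chromatin carrying the modified histone is enriched and its DNA sequenced, and transcripts by RNA-seq in *Arabidopsis thaliana* seedlings of 2 weeks, harvested without roots. The wild type was the accession Col-0 with 2 ChIP libraries, and the mutants, in the same background, were the LHP1 lines *tfl2-2* and *lhp1-6* with 1 library each, *clf-29*, the double mutant *atbmi1a,b* and the double mutant *atring1a,b* with 2 libraries each. The fit of the RNA counts also took in 2 libraries each of *swn-21* and *clf-29swn-21*, for which no peak lists were used. By the labels, the first Col-0 and the *tfl2-2* ChIP libraries came from plants at 21 °C and the second Col-0 and the *lhp1-6* ChIP libraries from plants at 22 °C. For RNA the labels give 21 °C for the first Col-0, the *tfl2-2* and the *lhp1-6* library and 22 °C for the second Col-0 library. The study counts the 2 lines as replicates of an *LHP1* mutant, although they carry different alleles, so a difference between them is one of allele, library and temperature that cannot be told apart. Nothing in the labels says that libraries came from separate cultures, so p-values measure the spread between these samples only.

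Trimethylation of H3 at this lysine marks genes that Polycomb group proteins keep silent. CLF is a catalytic subunit of PRC2, the complex that deposits the mark, and AtBMI1 and AtRING1 proteins form the core of PRC1, which ubiquitinates histone H2A. LHP1, also named TFL2, carries a chromodomain that binds H3K27me3 and works with both complexes. Plants without LHP1 are known for early flowering, small curled leaves and ectopic activity of floral homeotic genes, many of which carry the mark in seedlings.

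*LHP1* transcripts were compared first, as CPM, the counts of a gene relative to the size of each RNA library. They stood at 28.7 and 35.9 CPM in the first and second Col-0 library, at 0 in *tfl2-2* and at 1.72 in *lhp1-6*. Both lines were below both Col-0 libraries, and the log2 fold change of -5.23 ± 1.03 (SE, n = 2 and 2) had an adjusted p of 0.166 in edgeR's quasi-likelihood test after Benjamini-Hochberg adjustment. It passed in 3 of 9 alternative analyses, among them both analyses with 1 line left out. No H3K27me3 peak lay over *LHP1* (chr5:5827142-5829763, minus strand) in any of these 4 libraries.

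The 4 lists differ in size and in peak width, and they hold positions and scores but no reads. The first Col-0 list has 5055 peaks with a median length of 1760 bp, the second 2983 peaks of 2299 bp, *tfl2-2* 7034 peaks of 1441 bp and *lhp1-6* 7523 peaks of 961 bp. The lowest score in each list is near 50, and the median score ranges from 112 in the second Col-0 list to 266 in *tfl2-2*. The study gives fewer reads for the second Col-0 library than for the first. A missing peak therefore means that no peak was called, and the level of the mark below that threshold was not measured here. Shares below have Wilson intervals at 95%, which hold only the counting error, since peaks of 1 list share a library and are no replicates.

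Sequences of regions on which the comparison turns are given here from the RefSeq assembly TAIR10.1, whose nuclear coordinates are those of TAIR10. Both microRNA genes among the targets of lost peaks are shown by their mature arms, with the seed (bases 2 to 8) in capitals. The arms of *MIR166b* lie at chr3:22922301-22922321 (3p) and chr3:22922212-22922232 (5p) on the plus strand, and those of *MIR157c* at chr3:6244673-6244693 (5p) and chr3:6244527-6244547 (3p) on the minus strand. All of these arms lie inside a lost peak, and the seeds of the 4 arms differ.
ath-miR166b-3p: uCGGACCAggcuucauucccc
ath-miR166b-5p: gGACUGUUgucuggcucgagg
ath-miR157c-5p: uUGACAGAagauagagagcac
ath-miR157c-3p: gCUCUCUAuacuucugucacc

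The next windows are the 300 bp around the centre of a peak, for 3 new peaks and 1 kept peak that was narrowed in both lines, all from the plus strand. Capitals mark a GA repeat, GAGAGA on either strand, the only one of the 5 motifs searched that occurs in them.
The windows at *HB-3* (chr2:14342430-14342729), *TCP1* (chr1:25168970-25169269) and *AG* (chr4:10387552-10387851) lie in the gene, in coding sequence for *TCP1* and in coding and intron sequence for the other two. Each lay inside a peak of both lines and outside every Col-0 peak.
HB-3, new: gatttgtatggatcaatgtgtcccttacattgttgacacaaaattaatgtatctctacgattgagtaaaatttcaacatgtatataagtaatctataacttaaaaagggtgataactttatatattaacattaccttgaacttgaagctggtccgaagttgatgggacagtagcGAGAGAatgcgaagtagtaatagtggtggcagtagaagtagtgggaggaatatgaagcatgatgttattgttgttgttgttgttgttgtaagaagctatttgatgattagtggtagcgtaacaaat
TCP1, new: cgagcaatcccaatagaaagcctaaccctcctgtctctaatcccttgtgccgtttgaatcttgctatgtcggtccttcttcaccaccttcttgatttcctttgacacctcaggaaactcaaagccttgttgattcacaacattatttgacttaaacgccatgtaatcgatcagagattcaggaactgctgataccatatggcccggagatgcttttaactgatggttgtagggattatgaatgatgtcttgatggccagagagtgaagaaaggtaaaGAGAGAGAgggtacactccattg
AG, new: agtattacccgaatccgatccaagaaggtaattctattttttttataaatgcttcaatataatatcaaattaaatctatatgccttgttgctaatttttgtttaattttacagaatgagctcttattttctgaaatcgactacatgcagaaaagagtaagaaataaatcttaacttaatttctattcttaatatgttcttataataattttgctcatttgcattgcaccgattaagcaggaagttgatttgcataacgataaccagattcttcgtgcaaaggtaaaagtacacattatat
The window at *MAF4* (chr5:25993310-25993609) is intron sequence that both Col-0 peaks covered and neither the *tfl2-2* nor the *lhp1-6* peak of this gene reached.
MAF4, kept: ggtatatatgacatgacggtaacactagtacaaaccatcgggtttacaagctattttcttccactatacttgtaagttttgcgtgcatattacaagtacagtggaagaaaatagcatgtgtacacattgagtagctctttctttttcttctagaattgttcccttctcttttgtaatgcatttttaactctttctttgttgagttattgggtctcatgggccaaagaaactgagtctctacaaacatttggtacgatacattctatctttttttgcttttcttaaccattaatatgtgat

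Nearly all reproducible Col-0 peaks still had a peak in both LHP1 lines. Kept peaks made up 90.5% (interval 89.3% to 91.5%) of the 2863, peaks present in 1 line 3.04% and 4.54%, and lost peaks 1.96% (1.51% to 2.53%). *tfl2-2* had no peak at 186 of the reproducible peaks and *lhp1-6* at 143. Of the 2192 peaks found in the first Col-0 list only, 1752 (79.9%) had a peak in both lines and 129 in neither.

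Lost peaks were among the weakest of the Col-0 lists. Their scores in the first Col-0 list ran from 50.3 to 242 with a median of 77.5, against a median of 225 for kept peaks, and their median length was 1062 bp against 1686 bp. When the 2863 peaks were divided by this score into 5 classes of like number, 43 of the 573 weakest peaks (7.504%), 9 of 572 in class 2 (1.57%) and 4 of 573 in class 3 (0.698%) were lost, and 0 in classes 4 and 5, the strongest. Only 3 lost peaks had a score of at least 100 in both Col-0 lists. The lost peaks were spread over the genome, with 8, 11, 9, 11 and 17 on chromosomes 1 to 5, of 758, 492, 552, 426 and 635 reproducible peaks there.

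**Figure D1:**
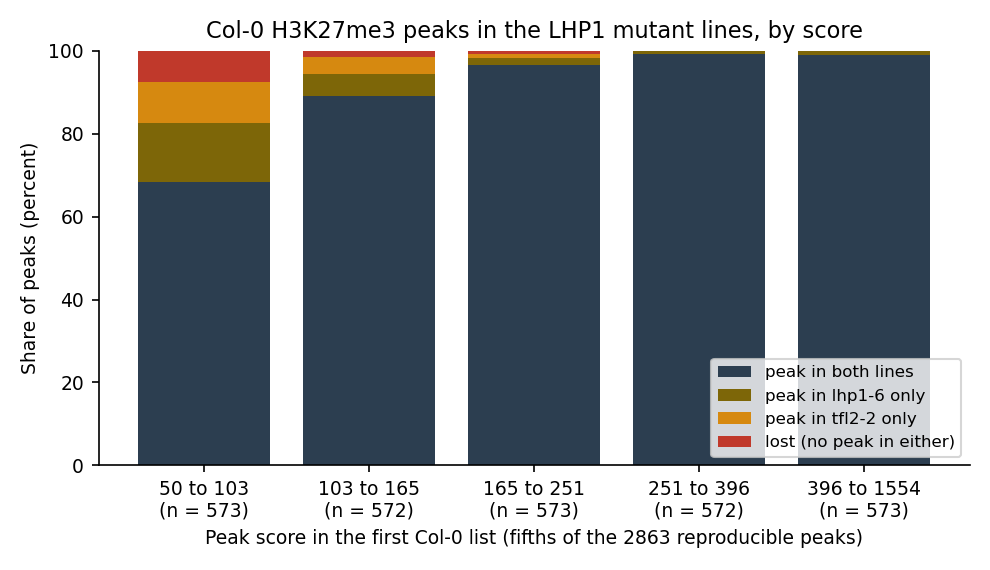
Stacked bars give the share (percent) of the 2863 reproducible Col-0 peaks that had a peak in both LHP1 lines, in 1 line or in neither, in 5 classes of the peak score in the first Col-0 list. Lost peaks make up 7.504% of the weakest class and 0 of the 2 strongest, and the share with a peak in both lines goes from 68.2% to 99.0%.

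The distance to the nearest peak of a line was measured for each lost peak, since the rule has a threshold of 1 bp. The median distance was 2547 bp to a *tfl2-2* peak and 2473 bp to a *lhp1-6* peak, and the smallest were 51 bp and 31 bp. A peak of *tfl2-2* lay within 500 bp of 14 lost peaks and a peak of *lhp1-6* within 500 bp of 16, and 35 lost peaks had neither. On the other side of the threshold, the kept peak with the smallest overlap still shared 86 bp with the line that overlapped it more.

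The share of centres outside genes was higher in lost than in kept peaks, and was not compared at like scores. A gene body held the centre of 26 of 56 lost peaks (46.4%), the 1000 bp upstream of a gene 10 (17.9%) and other sequence 20 (35.7%), against 84.4%, 8.07% and 7.49% of kept peaks. Peaks present in *lhp1-6* only were further from genes still, with 22.3% of centres in a gene and 48.5% in other sequence, whereas those present in *tfl2-2* only had 72.4% in a gene. The median GC content of the 300 bp around the centre was 33.5% in lost, 40% in kept and 42% in new peaks, beside 36.3% over all 300 bp tiles of the genome. No test was run between these groups, because their peaks come from the same 4 libraries.

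Motifs in the same 300 bp windows were counted on both strands, with no overlap between motif letters taken into account. The telobox AAACCCTA, a motif linked to Polycomb recruitment in plants, occurred in 6 of 56 lost windows (10.7%, interval 5.0% to 21.5%), 5.60% of kept, 5.99% of new windows and 3.87% of genome tiles. The GA repeat GAGAGA occurred in 25% of lost, 28.4% of kept, 29.3% of new windows and 24.3% of tiles. The RY element CATGCATG occurred in 2 lost windows (3.57%), 1.97% of kept, 0.888% of new windows and 0.861% of tiles. The G-box CACGTG was found in 1 lost window (1.79%) and in 6.76% of kept, 5.44% of new windows and 3.26% of tiles. The CArG box, which MADS proteins bind, was found in 1.79% of lost, 1.47% of kept, 1.11% of new windows and 1.85% of tiles. The interval of each share in lost windows contains the kept share.

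The highest-scoring lost peak covered *MIR166b* (AT3G61897) at chr3:22921935-22923811, from 271 bp before to 1605 bp after the start of the gene. miR166 cleaves transcripts of the class III homeodomain-leucine zipper genes that set leaf polarity. Its score was 242 in the first and 133 in the second Col-0 list, and the nearest peaks lay 5586 bp away in *tfl2-2* and 5866 bp away in *lhp1-6*. Peaks were called there in the first *clf-29* library, in both *atbmi1a,b* and in both *atring1a,b* libraries, and none in the second *clf-29* library. *MIR157c* (AT3G18217), whose product targets *SPL* transcripts in the control of developmental phase, lay in a lost peak at chr3:6243996-6245034. The gene counts of the 2 precursors were low, at 0.0491 to 0.0594 CPM in the 4 libraries for *MIR166b* and at 3.95, 0.934, 2.13 and 2.32 CPM in the first Col-0, second Col-0, *tfl2-2* and *lhp1-6* library for *MIR157c*. The adjusted p of both was at least 0.988 by edgeR's quasi-likelihood test.

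The other lost peaks with high scores were at genes of unlike roles. The second covered the long non-coding RNA AT4G05255 and the start of AT4G07940 (chr4:4790687-4792679, scores 195 and 56.1 in the first and second Col-0 list), and another lost peak lay on the body of AT4G07940. *AT2G23834* (179), *AT2G24460* and *AT2G24470* (149), *AT4G19220* (142), *AT3G45760* (132) and *AT5G06330* (127) were among the next by score in the first list. The ninth lay 3′ of *NCED3* (AT3G14440), which encodes the main drought-responsive enzyme of abscisic acid synthesis, and shared only its last bases. The tenth was in AT1G72080 (chr1:27121187-27122224) with scores of 105 and 170. This peak, that of *MIR166b* and one upstream of *IBR1* (AT4G05530, scores 103 and 291), which acts in the conversion of indole-3-butyric acid to auxin, were the 3 with a score of at least 100 in both lists. *IBR1* was chosen after its values were seen, as were *HAT22*, *NRAMP1* and *IGMT2* below.

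A few strong Col-0 peaks were missing from 1 line. None of classes 4 and 5 was lost, but 4 peaks of class 4 and 5 of class 5 had a peak in *lhp1-6* only and 1 of class 5 in *tfl2-2* only. The strongest was intergenic (chr2:18370072-18372449, scores 530 and 181 in the Col-0 lists). It had a *lhp1-6* peak with a score of 60.6, and the nearest *tfl2-2* peak lay 13608 bp away. A peak at *AT4G04905* (chr4:2319734-2321798) had scores of 399 and 144 in Col-0 and 409 in *lhp1-6*, and the nearest *tfl2-2* peak lay 76388 bp away. In class 3, *MYC2* (AT1G32640), which encodes a transcription factor of the jasmonate response, had a peak at chr1:11802176-11803210 with scores of 169 and 192 in Col-0 and 220 in *lhp1-6*, and none within 7386 bp in *tfl2-2*. *SLAH2* (AT4G27970), an anion channel gene, was the reverse, with scores of 171 and 52.0 in Col-0 and 284 in *tfl2-2*, and the nearest *lhp1-6* peak 20529 bp away. These loci were chosen after their values were seen.

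The regions lost in both LHP1 lines were then looked up in 6 libraries that the rule had not used. A peak was present at 7 of 56 lost regions in the first *clf-29* library and at 7 in the second (12.5% each, interval 6.19% to 23.6%). Kept regions had one in 93.3% and 88.1%, and 86.7% and 80.1% after weighting the score classes as in the lost peaks. In *atbmi1a,b* 22 (39.3%) and 27 (48.2%) of the lost regions had a peak, against 55.6% and 66.0% of kept regions at these scores. In *atring1a,b* 51 (91.1%) and 21 (37.5%) had one, against 93.3% and 29.7%. The interval of the lost regions thus lay below the weighted kept share in both *clf-29* libraries, in both *atbmi1a,b* libraries and in neither *atring1a,b* library. Without weighting by score, neither *clf-29* library had a peak at 45 of the 56 lost regions (80.4%), against 105 of 2590 kept regions (4.05%).

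Regions present in 1 line lay between these groups in *clf-29*. Those with a peak in *tfl2-2* only had one in 40.2% and 52.9% of cases in the first and second *clf-29* library, and those with a peak in *lhp1-6* only in 40.8% and 18.5%. The first *clf-29* library carries the 21 °C label of *tfl2-2* and the second the 22 °C label of *lhp1-6*.

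**Figure D2:**
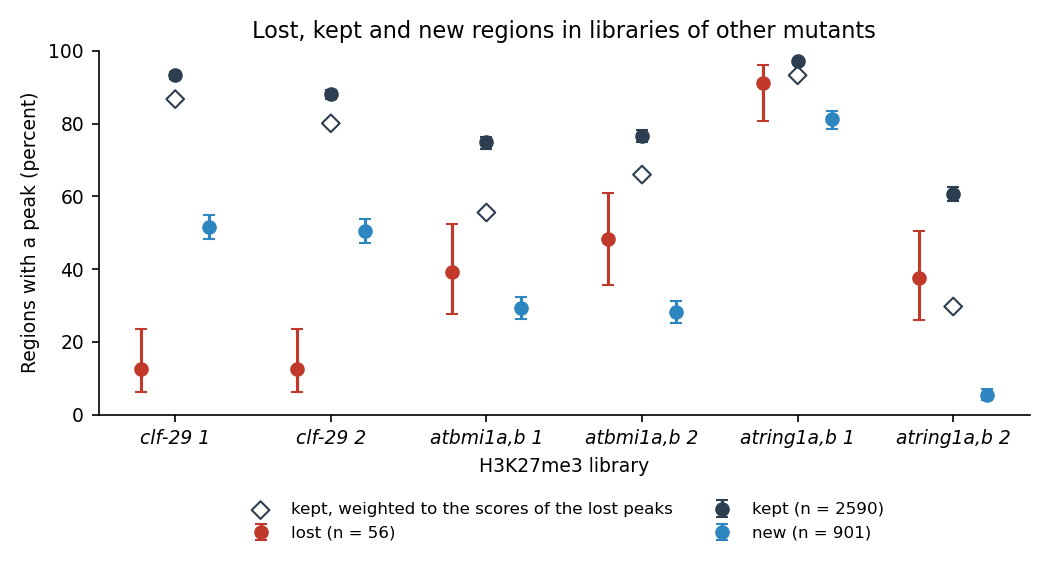
Points give the share (percent) of the 56 lost, 2590 kept and 901 new regions that had a peak in each library of *clf-29*, *atbmi1a,b* and *atring1a,b*, with 95% Wilson intervals, and open diamonds give kept regions weighted to the scores of the lost peaks. Lost regions have a peak in 12.5% of cases in both *clf-29* libraries, where kept regions at the same scores have one in 86.7% and 80.1%.

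The same rule was applied to the other mutants, with the same Col-0 lists, so these counts share their controls. By it, 248 of the 2863 reproducible peaks (8.66%) were lost in *clf-29*, 343 (12.0%) in *atbmi1a,b*, 65 (2.27%) in *atring1a,b* and 56 (1.96%) in the LHP1 lines. New peaks numbered 472 in *clf-29*, 335 in *atbmi1a,b*, 87 in *atring1a,b* and 901 in the LHP1 lines. The second *atring1a,b* library alone lacked 1182 of the reproducible peaks and the first lacked 96. These counts come from lists of unlike size, between 2209 peaks (second *atring1a,b* library) and 7523 (*lhp1-6*). The part of list size in their order was not tested.

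Although kept, most Col-0 peaks were covered only in part by peaks of the LHP1 lines. Cover does not tell a shorter peak from a shifted one, and lengths were not compared peak by peak. The *tfl2-2* peaks covered a median of 93.8% (quartiles 82.1% and 100%) and the *lhp1-6* peaks 77.3% (63.1% and 87.4%) of each of the 2590 kept Col-0 peaks. The second Col-0 library covered a median of 100% of the same peaks. Its own peaks were longer than those of the first list (medians of 2299 bp and 1760 bp), and cover in the reverse direction is not given here. The peaks of the second *clf-29* and the second *atbmi1a,b* list were also longer, with medians of 2170 bp and 2589 bp. The whole Col-0 peak was covered in 670 cases (25.9%) in *tfl2-2*, 68 (2.63%) in *lhp1-6* and 2261 (87.3%) in the second Col-0 library. Cover was lower in *lhp1-6* than in *tfl2-2* at 2189 kept peaks (84.5%) and higher at 353. Among kept peaks that had a peak in the library, median cover was 93.7% and 100% in the *clf-29*, 87.4% and 100% in the *atbmi1a,b*, and 100% and 98.6% in the *atring1a,b* libraries. The lower cover was thus seen in the first library of *clf-29* and of *atbmi1a,b* as well.

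Over kept peaks as a whole the missing stretches lay mostly at the ends. This form follows in part from the rule, since a single peak that covers only part of another leaves out an end of it. Over 1936 kept peaks whose position could be oriented by a single gene, the outermost of 20 equal segments on the gene start side was covered in 60.5% of cases by *tfl2-2* and 25.8% by *lhp1-6*, and that on the other side in 64.2% and 23.9%. Near the middle, at 47.5% of the length, the values were 97.9% and 93.2%. The second Col-0 library, whose list has longer peaks, covered the ends in 96.2% and 94.9%. The first *clf-29* library covered them in 56.04% and 58.2%, and the second in 80.6% and 81.9%. Kept peaks without a peak in a library count as uncovered here, and the *clf-29* libraries covered the middle in 91.8% and 90.7%. In the first *atbmi1a,b* library the ends had 34.7% each and the middle 72.1%. In the second *atring1a,b* library the ends had 45.9% and 43.9% and the middle 61.0%. Ends and middle differed less in the second *atbmi1a,b* and the first *atring1a,b* library. Longer peaks were covered less, with medians of 85.6% in *tfl2-2* and 71.6% in *lhp1-6* for peaks of 2286 to 7925 bp against 99.0% and 79.7% for those of 389 to 1249 bp.

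**Figure D3:**
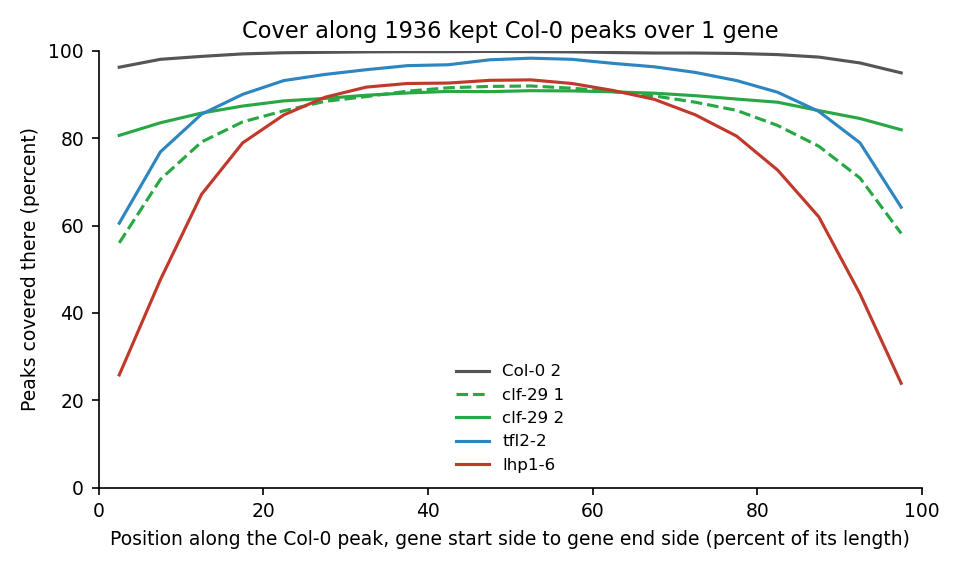
Lines give the share (percent) of 1936 kept Col-0 peaks covered at each of 20 positions along the peak, from the gene start side to the gene end side, in 5 libraries. The ends of the Col-0 peaks are covered in 60.5% and 64.2% of cases in *tfl2-2* and in 25.8% and 23.9% in *lhp1-6*. The second Col-0 library, whose list has longer peaks than the first, covers them in 96.2% and 94.9%.

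Breaks inside a peak were rarer. A kept Col-0 peak was met by at least 2 separate peaks in 159 cases (6.14%) in *tfl2-2*, in 423 (16.3%) in *lhp1-6*, in 94 in both and in 2 in the second Col-0 library. Cover fell under 50% at 101 kept peaks in *tfl2-2*, at 280 in *lhp1-6*, at 53 in both lines (2.05%) and at 4 in the second Col-0 library. These 53 peaks were long, with a median of 2900 bp against 1674 bp for the other kept peaks, and of like score (200.1 and 226 in the first list). In 25 of them that could be oriented by a single gene, the mean cover of 4 equal segments from the gene start side was 34.4%, 38.0%, 42.4% and 45.2% in *tfl2-2* and 33.6%, 45.2%, 34.0% and 28% in *lhp1-6*, so the missing stretches of these peaks were not limited to the ends. In *clf-29*, which the choice did not use, 41 of the 53 had a peak in the first library with a median cover of 44.0%, against 94.1% at the other kept peaks. In the second *clf-29* library 33 had one with a median cover of 60.9%, against 100%. Median cover of the 53 was 72.4% in the first *atbmi1a,b* library, against 87.5% at the other kept peaks, and 99.6% to 100% in the second *atbmi1a,b* and both *atring1a,b* libraries.

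Among the peaks with cover under 50% in both lines, called narrowed here, those of *MAF4*, *SEP4* and *AGL19* belong to MADS box genes. *MAF4* (AT5G65070, chr5:25992193-25996202) is a relative of the floral repressor gene *FLC*. Its Col-0 peak reached from -265 to 2799 bp of the gene start in the first and from -284 to 2366 bp in the second library, whereas the *tfl2-2* peak ended at 742 bp and the *lhp1-6* peak ran from 60 to 597 bp. The cover was 32.9% in *tfl2-2* and 17.6% in *lhp1-6*. The first *clf-29* library had a peak from -39 to 1169 bp, and the second *clf-29*, the *atbmi1a,b* and the *atring1a,b* libraries had none over this gene. *SEP4* (AT2G03710), a floral identity gene, had Col-0 peaks of 2570 and 2648 bp, and peaks of 1050 bp in *tfl2-2* and 1027 bp in *lhp1-6*, both at the 5′ part of the gene. The *clf-29* peaks there measured 1098 and 1248 bp, and the first *atbmi1a,b* peak 2631 bp. At *AGL19* (AT4G22950), a promoter of flowering, 46.1% of the Col-0 peak was covered in *tfl2-2*, 31.2% in *lhp1-6*, 29.4% and 37.0% in *clf-29*, and 100% in the second Col-0 library.

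The lowest cover in both lines was at an intergenic peak (chr4:14235156-14238879), of which 20.1% was covered in *tfl2-2* and 17.0% in *lhp1-6*. A peak over *SNRK2.9* (AT2G23030), a kinase gene, followed with 20.1% and 16.2%, and one over AT2G27935 to AT2G27940 with 22.7% and 20.6%. Peaks at AT2G32880, AT1G49310, AT5G46295 to AT5G46310, the thionin-like genes AT1G12660 to AT1G12665, the F-box genes AT5G25850 and AT5G25860, and AT5G27530, a pectin lyase-like gene, had 15.2% to 34.9% in either line. The last of these ran from -528 to 1867 bp of the start of AT5G27530, which had 0 CPM in Col-0 and in both lines. It lay upstream of *PNC2* (AT5G27520), a peroxisomal carrier gene, from -2952 to -557 bp of its start. Of the 18 genes with counts at these 10 peaks, 8 were expressed enough to be tested in RNA. Of these 0 were called by edgeR, beside 0.0997% of all genes tested. Among the tested genes *PNC2* alone had an unadjusted p under 0.05. *PNC2* stood at 48.1 and 39.7 CPM in Col-0 and at 29.4 and 20.5 CPM in *tfl2-2* and *lhp1-6*, with groups that did not overlap and an adjusted p of 0.684 by edgeR.

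New peaks were weaker than most peaks of the lines, and the share found in other mutants varied between libraries. Of the 901, 161 (17.9%) scored above the median of the *tfl2-2* list, 147 (16.3%) above that of the *lhp1-6* list and 82 above both. The nearest Col-0 peak lay at a median of 4100 bp, within 500 bp for 87 new peaks (9.66%) and over 10000 bp away for 240 (26.6%). A gene body held the centre of 778 (86.4%). The first and second *clf-29* library had a peak at 51.6% and 50.4% of the new regions, the *atbmi1a,b* libraries at 29.3% and 28.1%, and the *atring1a,b* libraries at 81.1% and 5.33%. At least 3 of these 6 libraries had a peak at 425 new regions (47.2%) and none at 32. The first *atring1a,b* list covers 26.0 Mb with a median peak length of 2984 bp, and the second 4.94 Mb with 2011 bp. The same shares were not counted for all *tfl2-2* peaks, so these values do not show whether new peaks recurred more or less than others.

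The new peaks with the highest scores in both lines lay on transcription factor genes in several cases. *SRS7* (AT1G19790), of the SHI family of development regulators, had scores of 812 in *tfl2-2* and 509 in *lhp1-6* (chr1:6837423-6840407). *HB-3* (AT2G33880), also named *WOX9*, acts in embryo and meristem growth and had 1089 and 478 (chr2:14341063-14344097). *NTT* (AT3G57670), a zinc finger gene of the transmitting tract, had 1144 and 476, and *TCP1* (AT1G67260), a relative of *CYCLOIDEA*, 849 and 465. *MYB86* (AT5G26660) had 646 and 346. The other 5 of the 10 highest were at AT4G05490 (836 and 514, the first by rank), AT4G29650, AT5G53960, the kinase gene AT5G51800, and *PLP9* with *RRF*. All 10 had a peak in the first *clf-29* library, 8 in the second *clf-29* and 9 in the first *atring1a,b* library.

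Gene families were counted by words in the product names of the annotation. MADS box genes made up 0.284% of the 1055 protein-coding targets of new peaks, beside 0.719% of the targets of all *tfl2-2* peaks and 0.657% of those of kept peaks. F-box genes, a large family of ubiquitin ligase subunits, made up 4.17%, beside 4.68% and 4.87%. Homeobox genes made up 1.52% of the targets of new peaks, beside 1.13% and 0.575%, and 0.758% of all annotated protein-coding genes. Other transcription factor families went both ways between targets of new and of all *tfl2-2* peaks. NAC genes made up 0.284% and 0.707%, bHLH genes 0.379% and 0.756%, WRKY genes 0.190% and 0.463%, and zinc finger genes 1.42% and 2.11%. MYB genes made up 1.33% and 1.15%, and ERF/AP2 genes 1.04% and 0.951%. The 48 protein-coding targets of lost peaks held 2 homeobox genes by these words, *HAT22* and *PC-MYB1*, the latter named a homeodomain-like protein. They also held 2 F-box, 1 zinc finger, 1 cytochrome P450 and 1 defensin gene, and 0 MADS box, NAC or WRKY genes. MicroRNA genes were 2 of the 64 targets of lost peaks (3.13%), 0.910% of those of kept peaks and 0.469% of those of new peaks, beside 0.860% of all annotated genes.

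**Figure D4:**
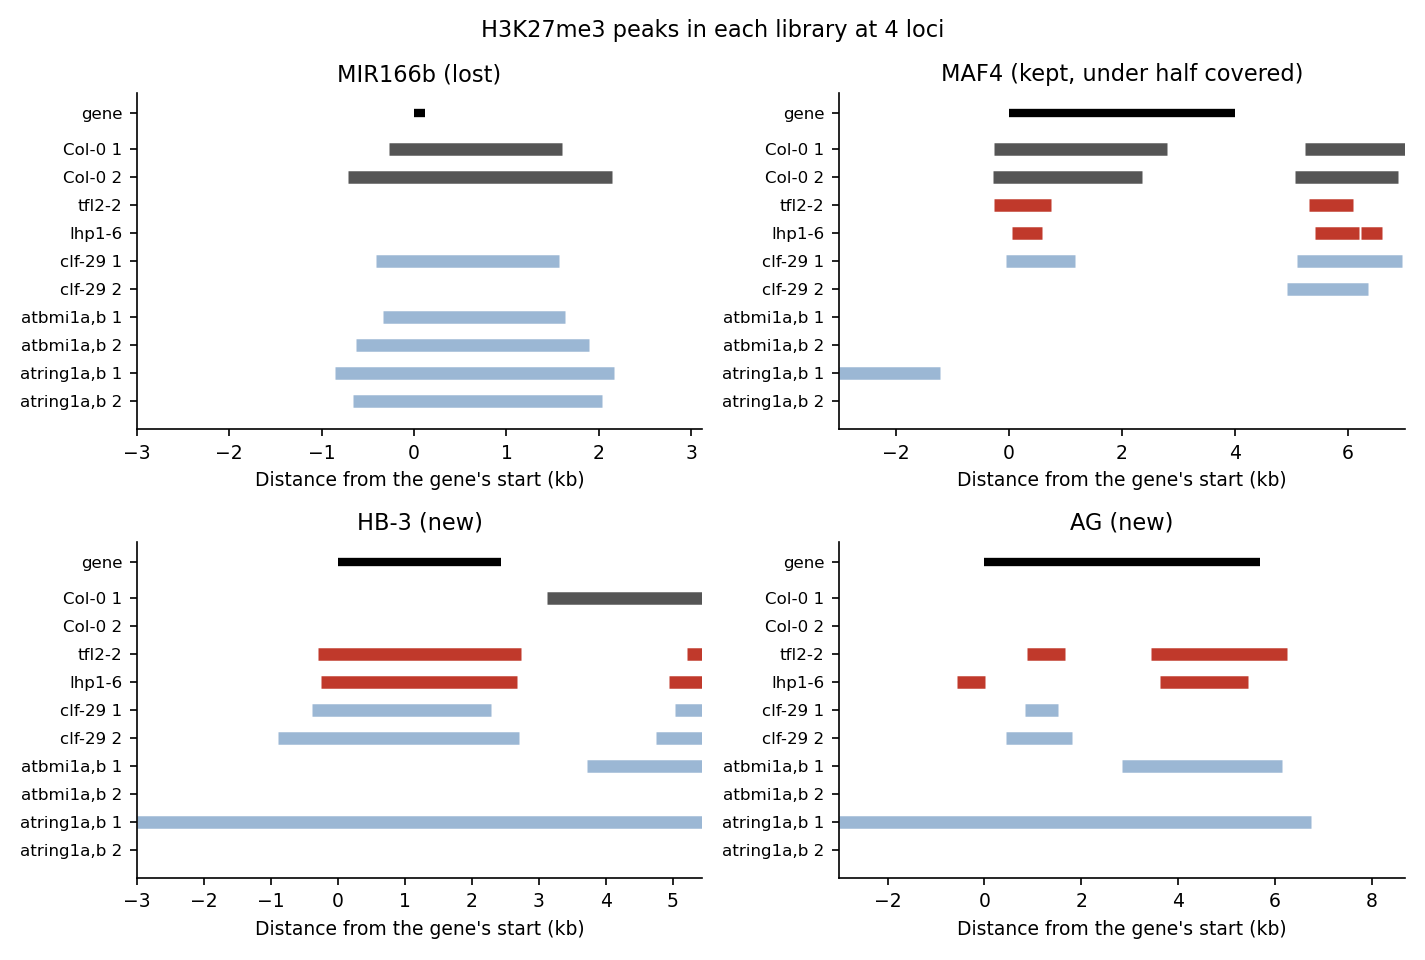
Bars show where each of the 10 libraries had a peak (horizontal axis in kb from the start of the gene, in the direction of transcription) at *MIR166b*, *MAF4*, *HB-3* and *AG*, with Col-0 in grey, the LHP1 lines in red and other mutants in blue. *MIR166b* has no peak in either LHP1 line, *MAF4* has shorter ones, and *HB-3* and *AG* have peaks where neither Col-0 list has one.

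Gene expression was then set beside the peaks. A gene was a target when a peak overlapped it or the 1000 bp upstream of its start, and genes were called at an adjusted p under 0.05 in edgeR's quasi-likelihood test, adjusted by Benjamini-Hochberg over all 22060 genes tested. Of these, 18 (0.0816%) were called higher and 4 (0.0181%) lower in the LHP1 lines, 0.0997% in either direction. These counts depended on the analysis, with 153 higher and 120 lower by DESeq2, 0 and 0 when only the 4 libraries were fitted, 13 and 6 without the first Col-0 library, 5 and 0 without the second, 7 and 1 without *tfl2-2*, and 4 and 1 without *lhp1-6*. By the study's own kind of criterion, a log2 fold change over 1 with an unadjusted p under 0.05, 2.01% were higher and 1.93% lower. In these seedlings, fewer cells that express a gene and less RNA per cell cannot be told apart. The 8 shoot marker genes summed to 13890 to 15610 CPM per library and none was at 0. The 12 root markers summed to 305 to 608 CPM, of which *PYK10* made up 304 to 605, and 4 to 7 of them were at 0. No marker was called. Total gene counts of the 4 libraries were 21394358 to 35517323.

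Target genes of lost peaks were not called. Lost peaks had 64 target genes at 46 of the 56 peaks, 37 of them were tested and 0 were called by edgeR in either direction. Over all genes tested 0.0997% were called, and at that share a count of 0 among 37 does not set these targets apart. By the unadjusted criterion 1 was higher (2.70%) and 2 were lower (5.41%), beside 2.01% and 1.93% of all genes tested. The median log2 fold change was -0.11, beside -0.02 over all genes tested. *IGMT2* (AT1G21120), a methyltransferase gene of indole glucosinolate synthesis, had the largest increase. It stood at 5.62 and 2.46 CPM in the first and second Col-0 library, 20.5 in *tfl2-2* and 39.9 in *lhp1-6*, so both lines were above both Col-0 libraries, with an adjusted p of 0.727 by edgeR. *NRAMP1* (AT1G80830), a manganese transporter gene, stood at 48.6 and 32.6 CPM in Col-0 and 77.7 and 76.1 CPM in the lines (adjusted p 0.733 by edgeR). *HAT22* (AT4G37790), a homeodomain-leucine zipper gene with a lost peak upstream of its start, had 69.0 and 40.4 CPM in Col-0 and 61.5 and 52.0 CPM in the lines, and these ranges overlapped. *NCED3* had 16.3 and 27.5 CPM in Col-0 and 16.9 and 13.1 CPM in the lines, which also overlapped.

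Target genes of kept and new peaks were rarely called as well, as were all genes tested (0.0997%). Kept peaks had 4285 target genes, of which 2587 were tested, 2 were called higher and 0 lower, and the median log2 fold change was 0.00. By the unadjusted criterion 3.87% were higher and 2.78% lower. New peaks had 1279 target genes, of which 732 were tested, 1 was called higher and 1 lower, and 4.37% were higher and 5.06% lower by the unadjusted criterion. The kept and new shares thus stood above the 2.01% and 1.93% of all genes in both directions. These target genes were also lower in expression, with a median of 0.351 CPM for kept and 0.410 CPM for new targets in the first Col-0 library, against 2.64 CPM over all genes of the count tables, and the part of expression level in these shares was not tested.

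The new target called higher was *AG* (AT4G18960), the MADS box gene that specifies stamens and carpels. Transcripts stood at 0.351 and 0.0983 CPM in Col-0 and at 14.9 in *tfl2-2* and 18.5 in *lhp1-6*. The log2 fold change was 6.07 ± 0.54 (SE, n = 2 and 2) with an adjusted p of 0.00626 by edgeR. The call was kept in 8 of 9 alternatives, with adjusted p from 1.68e-22 to 0.601, and was lost when only these 4 libraries were fitted. The new peak at chr4:10386303-10389100 lay 3447 to 6244 bp from the gene start, with scores of 258 in *tfl2-2* and 133 in *lhp1-6*. *tfl2-2* had another peak from 874 to 1664 bp and *lhp1-6* one across the start, and neither Col-0 list had a peak over *AG*. The first *atbmi1a,b* and first *atring1a,b* library had a peak over the same region, and the *clf-29* libraries had peaks only nearer the start, from 846 to 1513 bp and from 451 to 1800 bp. *AG* was thus higher in the lines that had a called peak there.

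The new target called lower was *AIF1* (AT3G05800), which encodes a helix-loop-helix protein that restrains brassinosteroid response. It stood at 17.8 and 19.9 CPM in Col-0 and 7.31 and 5.65 CPM in *tfl2-2* and *lhp1-6*, with a log2 fold change of -1.54 ± 0.20 (SE, n = 2 and 2) and an adjusted p of 0.0328 by edgeR. The peak (chr3:1727326-1728176) was weak, with scores of 78.6 and 57.4, and a *clf-29* peak, in the second library, had a score of 177. The call did not hold without any 1 of the 4 libraries (adjusted p 0.0692 to 0.380).

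Other new targets were not called. Among genes at the 10 highest new peaks, *TCP1*, *SRS7*, *HB-3*, *NTT* and *MYB86* were higher in both lines than in both Col-0 libraries. The ranges overlapped for *RRF*, *PLP9*, *CNGC8* and AT5G51800. How many of all genes tested were separated in this way was not counted, so this separation does not set these genes apart. *TCP1* stood at 0.381 and 0.0491 CPM in Col-0 and 3.52 and 3.15 CPM in the lines, *SRS7* at 0.966 and 1.03 against 3.46 and 4.22, and *HB-3* at 0.117 and 0.147 against 1.33 and 0.535. The adjusted p of *TCP1*, *SRS7* and *HB-3* by edgeR were 0.520, 0.168 and 0.224. *BRC1* (AT3G18550) and *TCP12* (AT1G68800), TCP genes that restrain the outgrowth of axillary buds and were chosen after their values were seen, stood at 0.234 and 0.491 CPM against 2.61 and 3.36, and at 0.703 and 1.13 against 2.81 and 3.24. *UGT76B1* (AT3G11340), a glycosyltransferase gene of plant defence chosen the same way, stood at 1.96 and 1.43 CPM in Col-0 and at 0.0567 and 0 CPM in *tfl2-2* and *lhp1-6*, with an adjusted p of 0.0896 by edgeR.

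**Figure D5:**
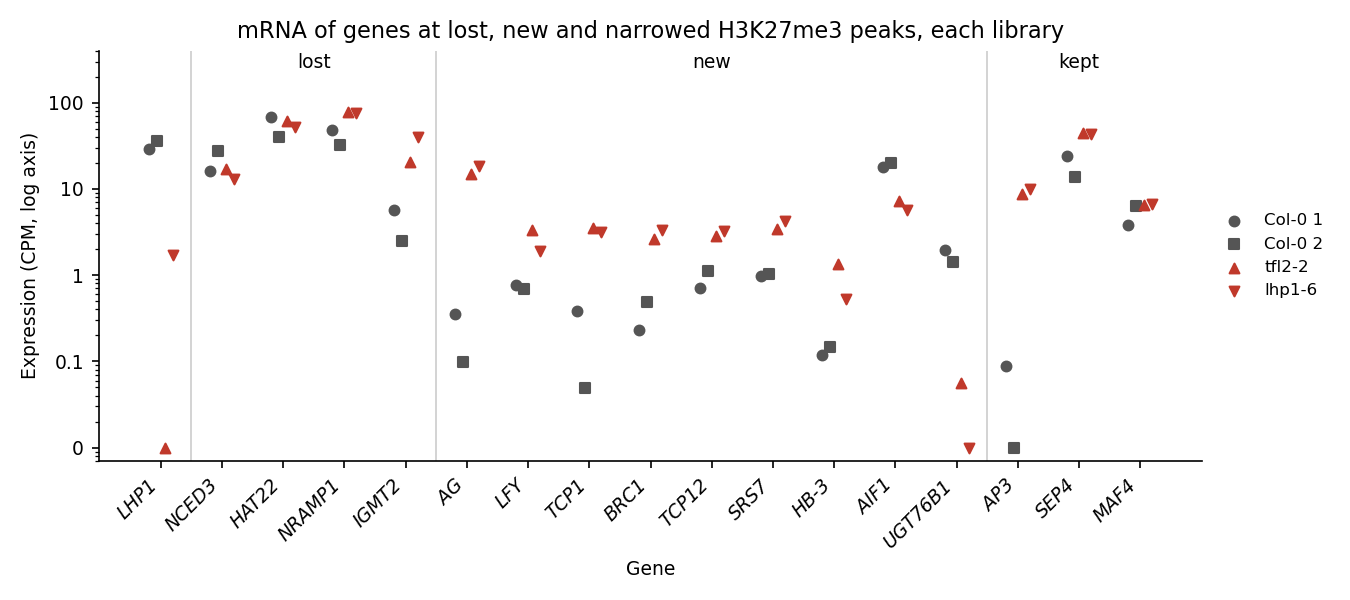
Points give the expression (CPM, logarithmic axis, with values of 0 drawn at the lowest mark) of *LHP1*, of 4 targets of lost, 9 of new and 3 of kept peaks in the 2 Col-0 libraries (grey) and in *tfl2-2* and *lhp1-6* (red). *AG* lies at 0.351 and 0.0983 CPM in Col-0 and at 14.9 and 18.5 CPM in the lines, whereas the points of *HAT22*, *NCED3* and *MAF4* overlap or lie close together.

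The kept target genes called higher were *AP3* (AT3G54340), which specifies petals and stamens, and AT3G28500. *AP3* stood at 0.0878 and 0 CPM in Col-0 and 8.76 and 10.01 CPM in *tfl2-2* and *lhp1-6*, with an adjusted p of 0.0102 by edgeR. Its peak stayed wide, with 2301 and 2533 bp of the gene and its upstream stretch marked in Col-0, 2364 bp in *tfl2-2* and 2105 bp in *lhp1-6*. The call was lost without the second Col-0 library (adjusted p 0.0527) and without *lhp1-6* (0.0538). AT3G28500 stood at 0.937 and 0.344 CPM in Col-0 and 15.5 and 10.5 CPM in the lines (adjusted p 0.0211 by edgeR). Of all 22 called genes, 11 were targets of a first-list Col-0 peak that the second Col-0 list lacked, whatever the lines had there. Among them *PI*, *SEP1*, *SEP2* and *SEP3* had peaks in both lines. Another 2 had a kept and 2 a new peak, and 7 none of these. Of the 22060 genes tested, 2587 were targets of kept and 732 of new peaks. The number of tested genes in the first-list class was not counted, so the 11 cannot be set against a share.

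Peaks at 92 listed genes of flower, flowering time, meristem, seed and Polycomb function were compared last. These lists were compiled with earlier results of the data known. A peak lay over the gene or its 1000 bp upstream at 63 of them in the first Col-0 list, 23 in the second, 68 in *tfl2-2* and 65 in *lhp1-6*. Of the 63, 59 had a peak in both lines, and at none was a reproducible peak lost. At 45 listed genes both lines had less of the gene and its upstream stretch marked than the first Col-0 list did. This count includes genes where a line, or both, had no peak.

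Most floral organ and meristem identity genes had a peak in both lines. The genes called higher in this list were MADS box genes, as are all of its genes but *AP2*, *LFY*, *UFO* and *SUP*. Of 18 genes, 16 had a peak in the first Col-0 list, 17 in *tfl2-2* and 15 in *lhp1-6*. All 18 were tested, 6 were called higher (*AG*, *AP3*, *PI*, *SEP1*, *SEP2* and *SEP3*) and 0 lower, and the median log2 fold change was 3.99. Over all genes tested 0.0816% were called higher, and the median was -0.02. *PI* (AT5G20240) stood at 0.439 and 0.491 CPM in Col-0 and 7.94 and 8.83 CPM in *tfl2-2* and *lhp1-6*, with marked stretches of 3296 bp in the first Col-0 list, 0 in the second, 2452 bp in *tfl2-2* and 2705 bp in *lhp1-6*. *SEP3* (AT1G24260), a cofactor of floral organ identity, stood at 0.732 and 1.28 CPM in Col-0 and 88.5 and 114 CPM in the lines, with 3139 bp marked in the first Col-0 list, 0 in the second, 2443 bp in *tfl2-2* and 1625 bp in *lhp1-6*. *AP1* (AT1G69120) and *CAL* (AT1G26310) had 4421 and 4651 bp marked in the first Col-0 list and 4198 and 2728 bp in *tfl2-2*, and no peak in the second Col-0 list or in *lhp1-6*. *AP1* stood at 0.0293 and 0 CPM in Col-0 and 6.92 and 3.51 CPM in the lines (adjusted p 0.0858 by edgeR).

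Of 18 flowering time genes, 11 had a peak in the first Col-0 list, 11 in *tfl2-2* and 11 in *lhp1-6*, with 10 that had one in all of these lists. Of 17 tested, 0 were called by edgeR, beside 0.0997% of all genes. By the unadjusted criterion 2 were higher and 1 lower, beside 2.01% and 1.93% of all genes. *FT* (AT1G65480), which encodes the mobile flowering signal, had a kept peak, with 1608 and 2001 bp in Col-0, 1612 bp in *tfl2-2* and 1563 bp in *lhp1-6*. Its expression stood at 0.351 and 0.0983 CPM in Col-0 and 9.04 and 11.02 CPM in the lines (adjusted p 0.248 by edgeR). *FLC* (AT5G10140) had 6805 bp marked in the first Col-0 list, 0 in the second, 4157 bp in *tfl2-2* and 5145 bp in *lhp1-6*. Its expression, 10.7 and 28.4 CPM in Col-0 and 10.2 and 9.33 CPM in the lines, differed more between the Col-0 libraries than between the first of them and the lines. *SOC1* (AT2G45660), a promoter of flowering, had 3633 bp marked in the first Col-0 list and 2093 bp in *lhp1-6*, and no peak in the second Col-0 list or in *tfl2-2*.

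Meristem, seed and Polycomb genes were not called. Of 22 meristem and embryo patterning genes, 18 had a peak in the first Col-0 list, 22 in *tfl2-2* and 21 in *lhp1-6*. *PLT1* (AT3G20840) and *WOX2* (AT5G59340) had new peaks, with 3366 and 844 bp marked in *tfl2-2* and 3945 and 646 bp in *lhp1-6*, and 0 in Col-0. *STM* (AT1G62360), which maintains the shoot meristem, had 4482 bp marked in the first Col-0 list, 0 in the second, 4001 bp in *tfl2-2* and 4409 bp in *lhp1-6*. Of 14 seed genes, 12 had a peak in the first Col-0 list and 13 in each line, where *LEC1* (AT1G21970), a regulator of embryo maturation, had a new peak of 1098 bp in *tfl2-2* and 816 bp in *lhp1-6*. Of 20 Polycomb genes, 6 had a peak in the first Col-0 list and 5 in each line. No gene of these 3 lists was called among the 19, 14 and 19 tested by edgeR, and by the unadjusted criterion 0, 1 and 1 were higher and 0, 0 and 1 lower. Over all genes 0.0997% were called, and 2.01% were higher and 1.93% lower by the unadjusted criterion. At these shares such counts do not set the 3 lists apart from all genes.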

How the data were processed

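The authors used BWA (TAIR10) for H3K27me3 ChIP-seq reads and MACS for peaks, 1 library at a time, and deposited each peak's position and a score that was used only for ranking and thresholds within a list. For RNA-seq the authors used TopHat and deposited HTSeq counts of each gene, as whole numbers without normalization. Rows that name no gene (2.66% to 3.43% of a library) were left out. A deposited table of the authors' log2 fold changes and p-values was not used. Libraries without antibody were not analysed here. The regions and gene lists were chosen with earlier results of these data known.

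Peak lists were read with numpy 2.4.6 and pandas 2.3.3 under Python 3.11.15, intervals came from SciPy 1.17.1, and figures were drawn with matplotlib 3.10.9. Counts of all 14 RNA libraries, in 7 groups with *tfl2-2* and *lhp1-6* as 1, entered 1 fit in R 4.3.3 with edgeR 4.0.16 (filterByExpr, TMM, robust quasi-likelihood) and limma 3.58.1. CPM used TMM library sizes. Gene positions came from RefSeq TAIR10.1, which held 32835 of the genes in the count files. Named loci were the listed genes, up to 10 lost, new and narrowed peaks by rank, and called targets of lost or new peaks, except that 1 of the lost peaks is not reported here. Other settings tried were RLE factors, DESeq2 1.42.0, a fit without the filter, the 4 libraries alone, growth temperature as a term, each library left out, stricter scores and overlaps, other target rules and 500 bp windows. The procedures were tested on simulated data.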

Additional observations from a re-analysis of the deposited data

Results flagged for a closer look

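Peaks on the organelle chromosomes stood outside the comparison, which used the 5 nuclear chromosomes. The *tfl2-2* list holds 5 such peaks and the *lhp1-6* list 10, against 1 in the first and 0 in the second Col-0 list. The first *clf-29* list also holds 5, and the other 5 lists hold 0.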

How the results depend on the processing

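Of the main counts, medians and shares, 58 values under an alternative stayed within 1.5 times the main count or within the spread, and 38 moved, for which the cause was not tested beyond the construction of the alternative. With scores of at least 100 in every list the base held 1498 reproducible peaks. Lost peaks numbered 158 when cover under 50% in both lines counted as lost, 145 when only mutant peaks with a score of at least 100 counted, 3 when only such Col-0 peaks counted, and 104 to 186 with 1 library left out. In comparisons added after the data had been seen, 460 were lost at 21 °C (first Col-0 library against *tfl2-2*) and 193 at 22 °C (second Col-0 library against *lhp1-6*). New peaks numbered 337 at scores of at least 100, 1144 to 2819 with 1 library left out, 2094 at 21 °C and 3963 at 22 °C. With the second Col-0 list as the base, median cover was lower in both lines, at 73.9% in *tfl2-2* and 57.05% in *lhp1-6*. The share of kept regions with a peak in the first *clf-29* library was 88.6% when 50% cover was required. Weighted to the scores of lost peaks, the kept shares were 86.7% and 80.1% in *clf-29*, 55.6% and 66.0% in *atbmi1a,b* and 93.3% and 29.7% in *atring1a,b*, so that the lost share in the second *atring1a,b* library (37.5%) lay above the weighted and below the unweighted kept share (60.6%), and 50% cover gave 69.1% in the first *atbmi1a,b* library. With the nearest gene as target, kept peaks had 2538 targets, and 5 targets of lost peaks passed the unadjusted criterion. DESeq2 called 153 genes higher and 120 lower, the fit of 4 libraries called 0 and 0, a term for temperature called 15 lower, and leaving out 1 library gave 4 to 13 higher and 0 to 6 lower. The 4-library fit had 0 genes past an adjusted p of 0.05 and 276 lower by the unadjusted criterion. Without the first Col-0 RNA library 1735 genes were higher and 1549 lower by the unadjusted criterion, against 444 and 425 with all libraries and 449 and 641 by DESeq2. No paired analysis was possible because, in the RNA fit, both lines carry the 21 °C label and no number in the labels ties either to a Col-0 library, whereas peak lists matched by temperature gave the counts at 21 °C and 22 °C above. Lists without reads limit what an absent peak shows, since fewer peaks were called in the second Col-0 library.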
